A study of Mus musculus with 12 samples.

Results

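The 57 genes described here encode proteins that copy DNA and repair it. They were chosen by a list of symbols drawn up with earlier results of these data known, with no threshold on a measured value. They comprised 31 replication genes, 3 mismatch repair genes, 6 homologous recombination genes, 7 checkpoint genes and 10 genes of other repair pathways, out of 21887 protein-coding genes of the RefSeq annotation on the mouse build mm10 (GRCm38.p6). All 57 matched that annotation. Chromatin immunoprecipitation with sequencing (ChIP-seq) had been used to map where MOF, the histone H4 lysine 16 acetyltransferase encoded by Kat8, sits on chromatin. The question put to the peak lists here was which of these genes had a MOF or GATA1 peak within 5 kb of either annotated gene end, in haematopoietic stem cells against megakaryocyte-erythroid progenitors.

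Of the 12 samples in the series, 5 gave a peak list. MOF was mapped in stem cells of the blood (HSC; no lineage markers, Sca-1+, Kit+, CD34-, Flt3-; 15000 cells sorted) and in megakaryocyte-erythroid progenitors (MEP; no lineage markers, Sca-1-, Kit+, CD34-, IL7r-, CD16/32-; 30000 cells sorted) from bone marrow of C57BL/6 mice, each from wild-type and from Mof -/+ animals, called heterozygous below. GATA1, a transcription factor that drives erythroid genes, was profiled in HPC7, a mouse haematopoietic progenitor line of wild-type genotype grown with 10 ng/mL stem cell factor and 10% fetal calf serum, at passage 3. The ages of the animals, the kind of Mof allele and the number of animals per library are not stated in the labels. Each group is 1 library, so no difference below has a replicate check and no test between groups was possible. The other 7 samples (6 inputs and 1 H4K16ac library) were not analysed here. Peak lists hold binding sites and no expression, so the sorted cell types could not be checked against their marker genes, nor the heterozygous label against the level of Kat8.

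DNA replication begins when the origin recognition complex, CDC6 and CDT1 load the ring-shaped MCM helicase onto origins. CDC45 and the GINS complex then activate the helicase, and polymerases held by the sliding clamp PCNA copy both strands. Mismatch repair corrects copying errors, homologous recombination restores broken DNA from the sister chromatid, and the ATM and ATR kinases stop the cell cycle while damage persists. In mammals MOF and its mark H4K16ac have been linked to the DNA damage response. Stem cells of adult marrow divide rarely, while MEP divide often.

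MOF peaks lay at a minority of these genes, and 3 of the genes were counted in both HSC and MEP. In wild-type HSC 10 of the 57 had a peak within 5 kb (17.5%, 95% Wilson interval 9.82 to 29.4), against 8.52% of all protein-coding genes, a share at which 4.86 of 57 genes would have one. These were Atr, Gins1, Mdc1, Msh6, Nbn, Pcna, Pold1, Rrm1, Trp53 and Xpc. In wild-type MEP 5 of 57 had one (8.77%, 3.81 to 18.9), against 3.40% of all genes, or 1.94 of 57. These were Brca1, Cdc6, Gins1, Mdc1 and Nbn. No member had a peak in heterozygous HSC, in heterozygous MEP or in the GATA1 list. The intervals cover counting error only, and 1 peak can count for several neighbouring genes. They do not allow for the choice of members, which was made with earlier results of these data known. The HSC list was also the longer, with 1876 peaks against 898.

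**Figure D1:**
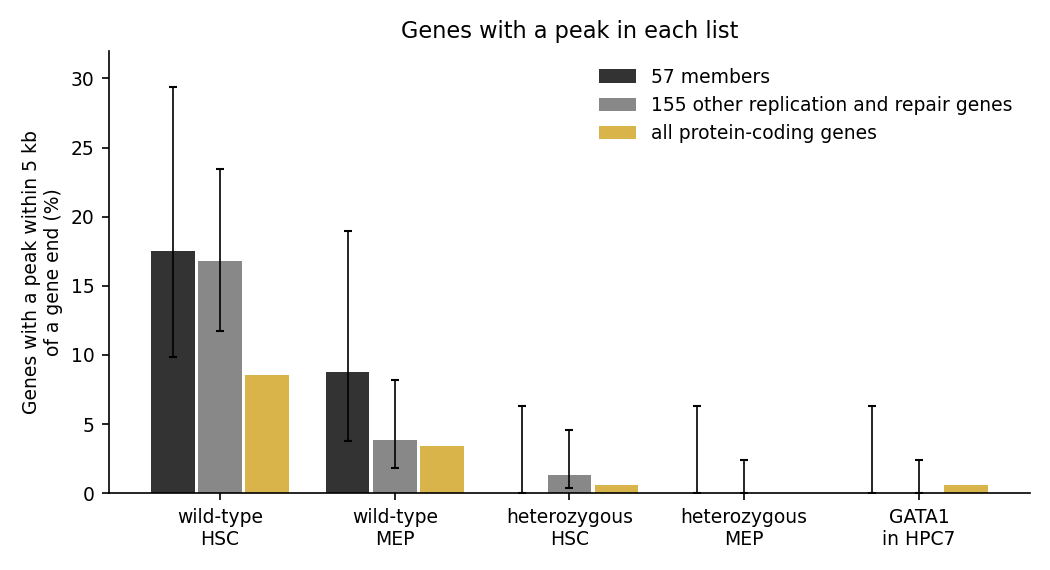
Share of genes (%) with a peak within 5 kb of a gene end in each of the 5 lists, for the 57 members, for 155 other genes of the same pathways and for all protein-coding genes; lines on bars are 95% Wilson intervals of the 2 shorter lists of genes. The members stand at 17.5% for HSC and 8.77% for MEP of wild-type mice, and at 0 in the other 3 lists.

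At 5 of the members a wild-type summit lay within 500 bp of an annotated start in the RefSeq promoter table (GRCm38.p6). Gins1, Nbn and Xpc also had a summit within 500 bp of a gene end, but are not in that table. The promoter windows of the 5, 250 bases before the start to 50 after it, are printed because a summit lies in them or next to them. They run 5′ to 3′ on the gene's own strand. Capitals mark matches, on either strand, to the letters CCAAT (the CCAAT box), GGGCGG (Sp1), TGACGT (cAMP response element) and CCGGAAG (ETS). Bases are counted from 1 at the 5′ end of the window, and the first base of the transcript is base 251.
Msh6: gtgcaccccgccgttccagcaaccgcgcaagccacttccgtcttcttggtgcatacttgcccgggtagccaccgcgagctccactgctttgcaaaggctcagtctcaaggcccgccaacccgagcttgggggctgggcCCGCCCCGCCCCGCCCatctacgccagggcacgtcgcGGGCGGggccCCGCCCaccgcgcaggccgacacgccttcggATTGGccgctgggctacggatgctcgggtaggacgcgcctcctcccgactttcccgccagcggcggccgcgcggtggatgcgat
Rrm1: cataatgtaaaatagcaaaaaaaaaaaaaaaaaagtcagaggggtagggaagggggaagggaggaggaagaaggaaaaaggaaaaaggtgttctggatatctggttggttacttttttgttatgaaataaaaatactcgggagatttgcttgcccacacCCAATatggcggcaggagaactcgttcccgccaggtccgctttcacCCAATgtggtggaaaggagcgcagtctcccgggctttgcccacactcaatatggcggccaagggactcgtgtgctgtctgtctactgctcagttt
Mdc1: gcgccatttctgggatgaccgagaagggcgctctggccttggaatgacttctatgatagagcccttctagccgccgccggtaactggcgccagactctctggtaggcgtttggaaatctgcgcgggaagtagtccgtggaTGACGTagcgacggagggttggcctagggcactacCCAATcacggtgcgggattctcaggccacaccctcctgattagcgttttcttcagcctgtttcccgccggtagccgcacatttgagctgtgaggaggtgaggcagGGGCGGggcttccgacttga
Atr: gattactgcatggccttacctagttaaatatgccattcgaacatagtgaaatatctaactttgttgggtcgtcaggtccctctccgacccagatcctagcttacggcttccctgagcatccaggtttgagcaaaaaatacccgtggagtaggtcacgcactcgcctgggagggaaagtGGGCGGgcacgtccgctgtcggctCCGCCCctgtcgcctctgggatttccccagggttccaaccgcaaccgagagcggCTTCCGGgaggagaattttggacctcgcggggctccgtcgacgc
Pcna: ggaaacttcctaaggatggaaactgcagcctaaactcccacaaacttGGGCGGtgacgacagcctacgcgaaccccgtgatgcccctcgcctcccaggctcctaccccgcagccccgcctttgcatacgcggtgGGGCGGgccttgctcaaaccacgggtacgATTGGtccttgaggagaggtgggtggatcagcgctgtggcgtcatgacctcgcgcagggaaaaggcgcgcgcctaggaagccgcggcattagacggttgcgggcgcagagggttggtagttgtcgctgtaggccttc
The windows lie at chr17:87974800-87975099 on the plus strand for Msh6, chr7:102441445-102441744 on the plus strand for Rrm1, chr17:35841248-35841547 on the plus strand for Mdc1, chr9:95857347-95857646 on the plus strand for Atr and chr2:132253131-132253430 on the minus strand for Pcna. The HSC summit fell on base 27 of the Msh6 window, on base 262 of the Rrm1 window and on base 163 of the Pcna window, and the MEP summit fell on base 163 of the Mdc1 window. The HSC summit at Atr lay 78 bp past the start and so beyond the printed bases. The Msh6 window holds 5 Sp1 matches, of which 3 follow each other with 1 shared base between neighbours, and has a GC content of 71.7%. The Rrm1 window has a GC content of 47.0%, and its matches are 2 CCAAT boxes, both upstream of the summit.

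Of the 31 replication genes 5 had a MOF peak in HSC, MEP or both (16.1%, 7.09 to 32.6, against 10.4% of all genes). None of these was a gene of the MCM ring, a group too small to tell an absence from that share. In wild-type HSC 4 of 31 replication genes had a peak (12.9%, 5.13 to 28.9, against 8.52% of all genes). The count for wild-type MEP was 2 of 31 (6.45%, 1.79 to 20.7, against 3.40%). Each of these intervals includes the share over all genes beside it. Rrm1, which encodes the large subunit of the ribonucleotide reductase that makes deoxynucleotides, had the highest value among the HSC peaks of these genes. Its summit at chromosome 7, position 102441706, stood 11 bp inside the gene from its start and had an authors' −log10 value of 10.1, rank 201 of 1876 in the list. The authors' value is their caller's −log10 score per peak and can be compared only within a list, where its median was 5.27 for the wild-type HSC peaks and 5.61 for the wild-type MEP peaks. Rrm2, the gene of the small reductase subunit, had no peak nearer than 3335 kb in HSC.

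Pcna, the gene of the sliding clamp, was the only member with more than 1 peak within 5 kb in a list. The weaker HSC summit (chromosome 2, position 132253268; 2.76, rank 1653) lay 88 bp upstream of the Pcna start, in the short gap to Cds2, whose end was 70 bp away. The stronger one (132247762; 8.05, rank 383) lay 1524 bp beyond the 3′ end of Pcna and 26 bp past an annotated start of the neighbour Tmem230. In MEP the nearest peak to Pcna was 1825 kb away. Pold1, which encodes the catalytic subunit of polymerase delta, had its HSC peak (chromosome 7, 44553783; 5.09, rank 982) 4968 bp upstream, just within the window, and 182 bp past a start of Nr1h2.

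Gins1, a subunit of the GINS complex, was counted in both cell types at different positions. The MEP summit (chromosome 2, 150909666; 3.04, rank 807 of 898) lay 110 bp inside the gene from its lower-coordinate end. The HSC summit (150904742; 2.20, rank 1751) lay 4814 bp outside the gene, 37 bp from the end of Abhd12. The summits were 4924 bp apart. Cdc6, the origin loading factor, had a peak in MEP (chromosome 11, 98911623; 2.28, rank 866) 3914 bp inside the gene from its lower-coordinate end, and in HSC the nearest peak was 44.2 kb away.

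The other 26 replication genes had no wild-type peak within 5 kb. They were the helicase genes Mcm2, Mcm3, Mcm4, Mcm5, Mcm6, Mcm7, Cdc45 and Gins2, the origin genes Mcm10, Cdt1, Orc1, Orc2 and Orc6, and the polymerase genes Pola1 and Pole. They also included the clamp loader genes Rfc1, Rfc2, Rfc3, Rfc4 and Rfc5, the single-strand binding genes Rpa1, Rpa2 and Rpa3, the flap nuclease gene Fen1, the ligase gene Lig1, and Rrm2. Among the MCM ring genes the nearest HSC peak was 87.3 kb away, at Mcm6, and the nearest MEP peak 41.2 kb away, at Mcm2.

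Msh6 had the highest value of the member peaks in wild-type HSC. Its product recognises base mismatches. The HSC summit (chromosome 17, position 87974826) lay 224 bp upstream of the start and no other protein-coding gene end lay within 5 kb of it. Its value was 16.9, rank 35 of 1876. In MEP the nearest peak was 528 kb from Msh6. The other mismatch repair members, Msh3 and Pms2, had no peak in either cell type, so the group counted 1 of 3 genes for HSC (95% interval 6.15 to 79.2%) and 0 of 3 for MEP (0 to 56.1%). With 3 genes these counts cannot be told from the shares of 8.52% and 3.40% over all genes. In HSC the nearest peaks were 751 kb from Msh3 and 361 kb from Pms2.

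Of the homologous recombination genes Nbn had a peak in both cell types and Brca1 in MEP. The counts were 1 of 6 for HSC (16.7%, 3.01 to 56.4, against 8.52% of all genes) and 2 of 6 for MEP (33.3%, 9.68 to 70.0, against 3.40%). The same 6 genes were counted in both lists, so the intervals do not compare HSC with MEP, and that difference was not tested. The HSC interval includes the share over all genes. The MEP interval lies above it, but rests on 2 genes and does not allow for the choice of members. NBN, with MRE11 and RAD50, forms the complex that binds broken DNA ends. Its HSC summit (chromosome 4, 15958029; 4.38, rank 1206) lay 442 bp and its MEP summit (15957891; 3.59, rank 748) 304 bp inside the gene from the lower-coordinate end. The summits were 138 bp apart, and of the 3 genes counted in both cell types Nbn was the 1 where the summits, each extended by 150 bp on either side, overlapped. MEP had a further summit inside Nbn (15986844; 4.81, rank 576), 5745 bp from its upper end and so outside the window. At Brca1, whose product promotes strand resection and recombination, the MEP summit (chromosome 11, 101485823; 4.84, rank 565) lay 2938 bp beyond the 3′ end of the gene, and the nearest HSC peak was 46.4 kb away. Brca2, Palb2, Rad50 and Mre11a had no peak within 5 kb in any list.

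Checkpoint genes had peaks at 3 of 7 in HSC (42.9%, 15.8 to 75.0, against 8.52% of all genes) and 1 of 7 in MEP (14.3%, 2.57 to 51.3, against 3.40%). In 2 of the 3 HSC cases, Trp53 and Mdc1, the end of a neighbour was nearer to the summit. Atr, the kinase gene of the replication stress checkpoint, had its HSC summit (chromosome 9, 95857675; 3.76, rank 1395) 78 bp inside the gene from its start. The same summit lay inside the neighbour 1700065D16Rik, 207 bp from that gene's end and 158 bp upstream of one of its annotated starts. In MEP the nearest peak to Atr was 346 kb away. At Trp53, the gene of the p53 tumour suppressor, the HSC summit (chromosome 11, 69579366; 6.70, rank 617) lay 982 bp outside the lower end of the gene and inside the neighbour Wrap53, 117 bp upstream of one of its annotated starts. A MEP summit lay inside Trp53 (69585993; 5.88, rank 418), 5645 bp from the gene's lower end, and was the member peak nearest beyond the 5 kb limit.

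Mdc1, whose product recruits repair factors to phosphorylated H2AX, had the highest member peak in MEP. That summit (chromosome 17, 35841410; 6.36, rank 354 of 898) lay 85 bp outside the lower end of the gene, 88 bp upstream of its start in the promoter table. The HSC summit counted for Mdc1 (35838327; 4.38, rank 1206) lay 3168 bp from the gene and 26 bp upstream of the beta-tubulin gene Tubb5. The HSC and MEP summits were 3083 bp apart. Atm, Chek1, Chek2 and Trp53bp1 had no peak within 5 kb in any list. The nearest HSC peak among these was at Chek2, 31.5 kb away, which was also the shortest such distance among the members without an HSC peak.

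Of the 10 genes of other repair pathways 1 had an HSC peak (10.0%, 1.79 to 40.4, against 8.52% of all genes) and 0 a MEP peak (0 to 27.8%, against 3.40%). Xpc, which encodes the damage sensor of global nucleotide excision repair, had its HSC summit (chromosome 6, 91515968; 6.14, rank 730) 80 bp outside its upper end and 67 bp upstream of the start of Lsm3. The end-joining genes Xrcc5, Xrcc6 and Lig4, the nick sensor gene Parp1, the excision repair genes Ercc1, Ercc2 and Ung, and the Fanconi anaemia genes Fanca and Fancd2 had none.

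**Figure D2:**
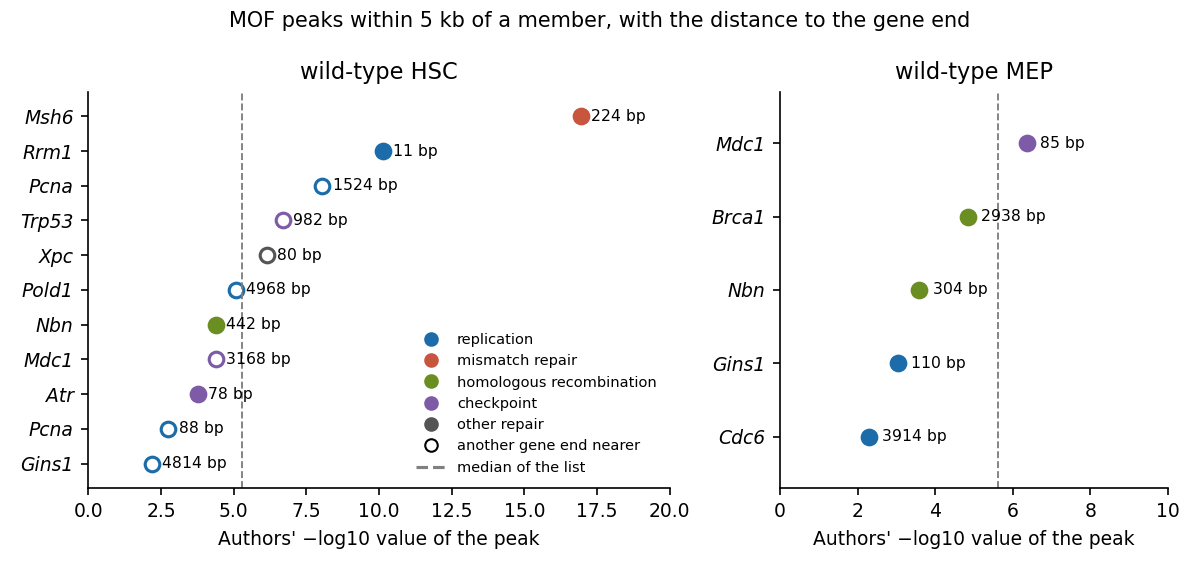
The authors' −log10 value (horizontal axis) of every MOF peak within 5 kb of a member for HSC (left) and MEP (right) of wild-type mice, with the distance to the gene end beside each point, colour by role and open points where another gene's end was nearer. The dashed line is the median of the list; Msh6 at 16.9 and Rrm1 at 10.1 lead in HSC, and Mdc1 at 6.36 is the 1 MEP point above the median.

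The HSC peaks counted for these genes often lay nearer to another gene. In 7 of the 11 HSC pairs of gene and peak, the end of a neighbour was closer to the summit, and the member was nearest in 4 (36.4%), against 68.8% of the 1997 pairs of any protein-coding gene and HSC peak. The members that were nearest were Msh6, Rrm1, Nbn and Atr. With each peak counted only for its nearest gene, the HSC share was 7.02% (4 of 57) against 6.09% of all genes. In MEP the member was nearest in all 5 pairs, against 65.0% of 811, and with the nearest gene only the share was 8.77% (5 of 57) against 2.32%. By score, 5 of the 11 HSC peaks and 1 of the 5 MEP peaks lay above the median of their list. Among peaks within 5 kb of any protein-coding gene end these numbers were 680 of 1368 and 227 of 525.

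**Figure D3:**
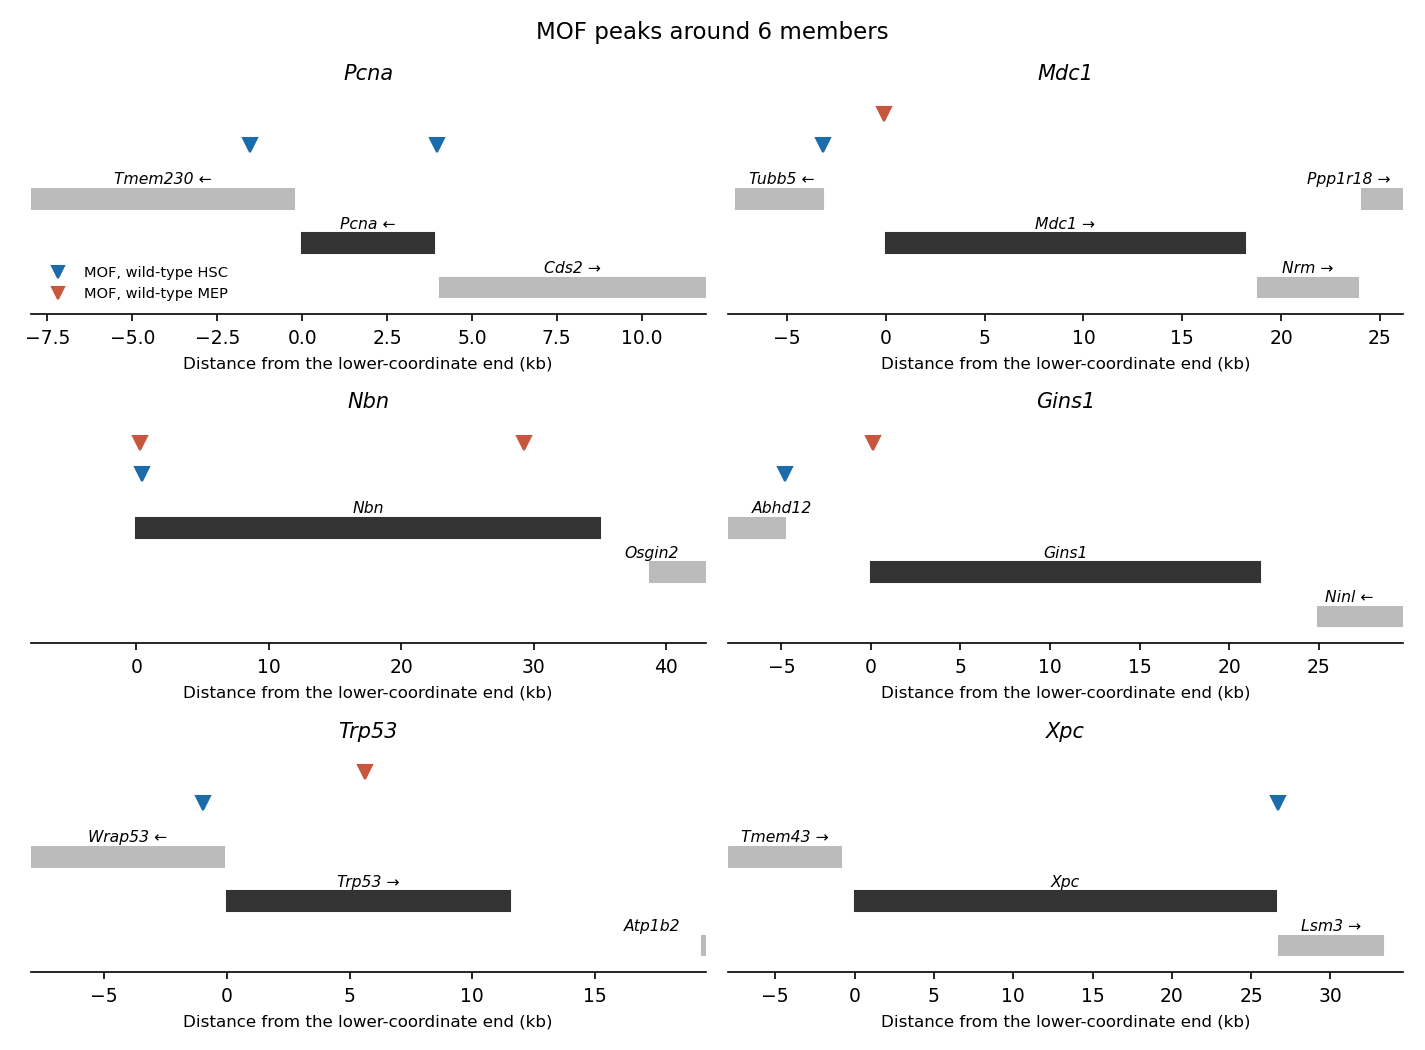
Maps of 6 members (dark bars) and their protein-coding neighbours (grey bars) against the distance from the member's lower-coordinate end (kb), with MOF summits of wild-type HSC (blue) and wild-type MEP (red); an arrow gives the strand where the promoter table has one. At Pcna, Mdc1, Gins1, Trp53 and Xpc the HSC summits lie at a neighbour's end or inside a neighbour, and at Nbn the HSC and MEP summits lie 138 bp apart.

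Many of the members lie close to a neighbour. Another protein-coding gene end lay within 1 kb of an end of 31 of the 57 members (54.4%, 41.6 to 66.6), against 24.8% of all protein-coding genes. Familiar pairs among them are Mcm4 with Prkdc, Brca1 with Nbr1 and Atm with Npat. Across all genes a peak was called more often where such a neighbour existed. In HSC the share was 15.0% of genes with a close neighbour and 6.40% of those without, and in MEP 6.62% and 2.34%. Among the members it was 7 of 31 with a close neighbour and 3 of 26 without in HSC (22.6% and 11.5%), and 2 of 31 and 3 of 26 in MEP (6.45% and 11.5%). The close neighbour can lie at the end away from the peak, as at Msh6 in HSC and Brca1 in MEP. The part of gene spacing in the members' counts was not tested.

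Gins1, Mdc1 and Nbn were counted in both HSC and MEP, and only at Nbn did the extended summits overlap. These 3 genes were 30.0% of the 10 members in HSC and 60.0% of the 5 in MEP. Over all protein-coding genes the 333 in both lists (1.52%) were 17.9% of the HSC genes and 44.7% of the MEP genes. With each peak counted only for its nearest gene, Nbn was the 1 member in both (1.75%, against 0.905% of all genes). Either list held 12 of the 57, against 10.4% of all genes. Between the cell types the median distance from a member to its nearest peak was 218 kb in HSC and 367 kb in MEP, against 285 kb and 789 kb for all protein-coding genes, and the distances depend on the length of each list.

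**Figure D4:**
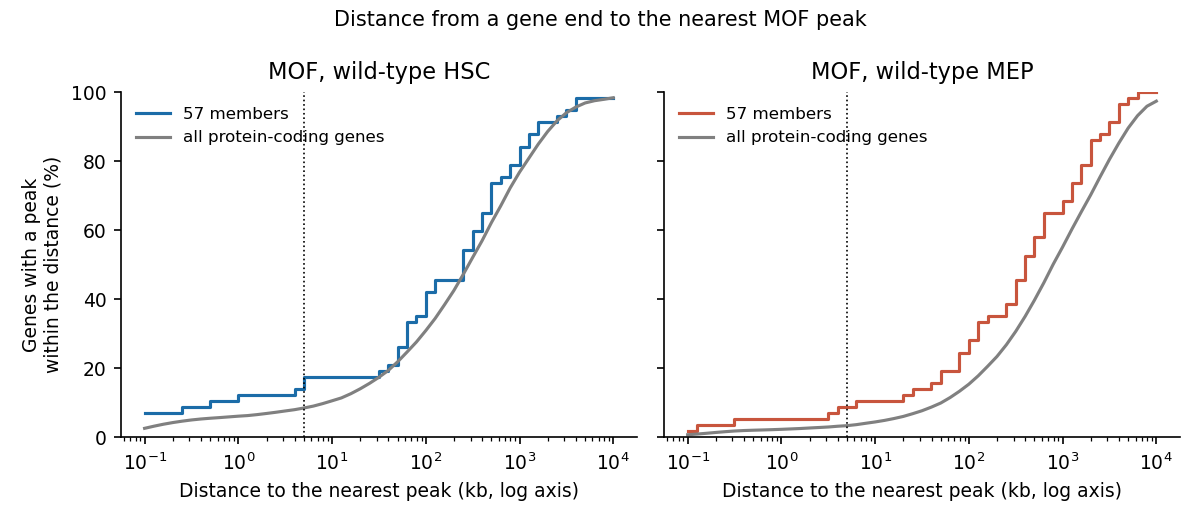
Share of genes (%) with a MOF peak within a given distance of a gene end (kb, log axis) for HSC (left) and MEP (right) of wild-type mice, for the 57 members (coloured steps) and all protein-coding genes (grey); the dotted line marks 5 kb. The members' median is 218 kb in HSC and 367 kb in MEP, against 285 kb and 789 kb for all genes.

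In the heterozygous lists no peak came near these genes. The nearest was 83.4 kb from a member in heterozygous HSC (338 peaks) and 366 kb in heterozygous MEP (64 peaks). Within 5 kb the heterozygous lists held 0.567% and 0.0366% of all protein-coding genes, shares at which 0.323 and 0.0208 of 57 genes would have a peak. A count of 0 of 57 (upper Wilson limit 6.31%) is therefore not distinguishable from the background of these short lists. The GATA1 list of 477 intervals held 0.603% of all genes, or 0.344 of 57, and no member. Its nearest interval, chromosome 17 from 35874802 to 35874986, lay 15.2 kb from Mdc1 and 702 bp from the end of Ppp1r18.

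A wider list of 155 further replication and repair genes showed a like share in HSC and a MEP share near that of all genes. It too was written with earlier results of these data known. In 16 of its 28 HSC pairs of gene and peak the gene was nearest (57.1%), against 68.8% over all genes. In wild-type HSC 26 of 155 had a peak (16.8%, 11.7 to 23.4), in wild-type MEP 6 (3.87%, 1.79 to 8.19), in heterozygous HSC 2 and in the remaining lists 0, beside the background shares above. By role the HSC counts were 6 of 43 for replication, 0 of 5 for mismatch repair and 8 of 30 for homologous recombination. They were 2 of 16 for checkpoint and 10 of 61 for other repair. In that order the MEP counts were 1 of 43, 0 of 5, 0 of 30, 3 of 16 and 2 of 61. Over all genes the shares were 8.52% in HSC and 3.40% in MEP. For homologous recombination and for checkpoint, HSC against MEP ran the other way round among the members. These counts are small, and the difference was not tested. The highest HSC peaks were at Gtf2h1, a subunit of the repair and transcription factor TFIIH (12.9, 169 bp from its end and nearer to Hps5), and Apex1, the abasic site nuclease (12.6, 3802 bp away and nearer to Pip4p1). They were followed by Parp2, a second nick sensor (11.4, 112 bp), Chaf1a, a subunit of the histone loading factor CAF-1 (10.8, 3660 bp away and nearer to Sh3gl1), and Mus81, a junction nuclease (9.75, 3123 bp away and nearer to Cfl1). In MEP they were at Polg, the mitochondrial polymerase (9.70, 1522 bp), Fancm (6.28, nearer to Fkbp3), Rad9a (5.64, nearer to Ppp1ca), Ercc3 (5.02, 40 bp) and H2ax (4.41, 19 bp). No gene of this wider list was in both wild-type lists (upper Wilson limit 2.42%), which is not distinguishable from the 1.52% of all genes.

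In heterozygous HSC the peaks of this wider list were at Ddb2 and Atrip. DDB2 recognises ultraviolet damage, and its gene had an interval with a midpoint 12 bp from the gene end (−log10 q 7.92, 6.96-fold enrichment, rank 168 of 338). ATRIP is the partner of the ATR kinase, and its gene had one 8 bp away (4.62, 5.77-fold, rank 250). Neither gene had a peak within 5 kb in wild-type HSC.

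The promoter windows of the members were searched for the letters of 7 motifs. Of the 57 members 48 were in the promoter table, and 9 of these had a wild-type peak within 5 kb of either gene end. Among the 9, only Msh6, Rrm1, Mdc1, Atr and Pcna had a summit within 500 bp of an annotated start. E2F factors switch on many replication genes before S phase, and their letters TTTGGCG or TTTCGCG, on either strand, stood in the windows of 14 of the 48 (29.2%), against 3.38% of all 17492 protein-coding genes in the table. The 14 were Brca2, Cdt1, Chek1, Lig1, Mcm10, Mcm3, Mcm5, Mcm6, Mcm7, Msh3, Orc1, Pola1, Rfc3 and Rpa1. All 14 were among the 39 members in the table without a wild-type MOF peak, and 0 of the 9 with one held these letters. Over all protein-coding genes in the table the order was the other way round: a wild-type peak lay within 5 kb of 19.6% of genes whose window held the E2F letters (116 of 592) and of 10.6% of those whose window held none (1792 of 16900). The difference was not tested, and 9 of the 57 members were not in the table, among them Gins1, Nbn and Xpc, which had a wild-type peak. Only these exact E2F letters were searched, and the absence of a match says nothing of the factor. The similar string TTTCCCGCC, which was not searched, stands in the printed Msh6 and Mdc1 windows. CCAAT stood in a promoter window of 66.7% of the 48 members, against 42.3% of all genes. By gene in the same way, TGACGT stood in 29.2% against 9.60%, CCGGAAG in 29.2% against 12.9%, and GGGCGG in 70.8% against 49.2%. TTTGAA, the letters of the cell cycle homology region, stood in 6.25% against 18.5%, and the GATA letters AGATAA or TGATAA in 6.25% against 18.2%. None of these letter strings contains another. The median GC content was 59.2% in member windows and 56.3% in all windows. A match is a string of letters and not a binding site, and these motif shares carry no test.

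**Figure D5:**
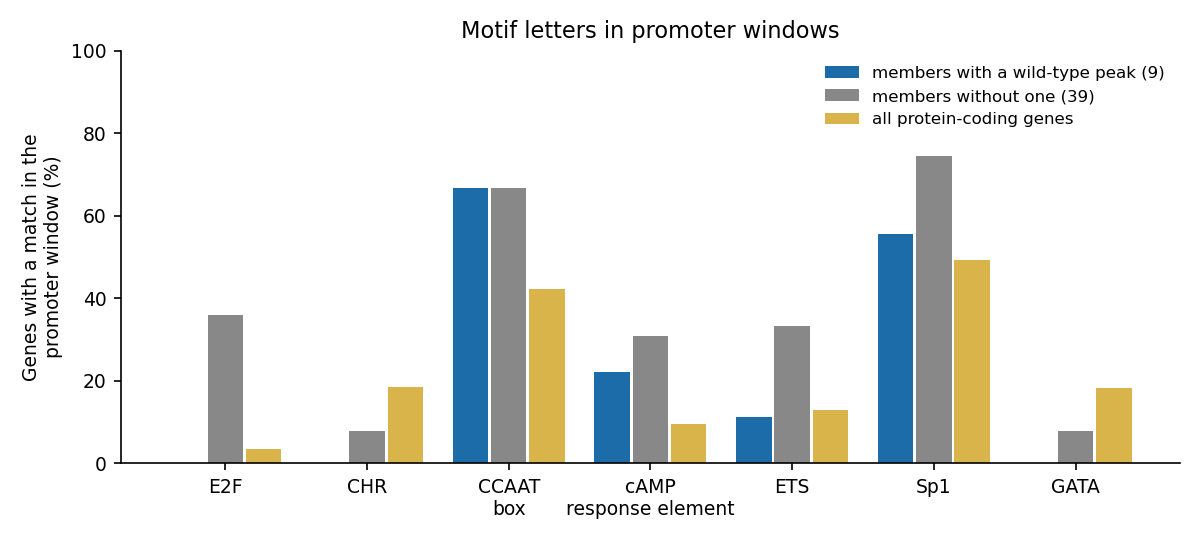
Share of genes (%) whose promoter window holds each motif, on either strand, for the 9 members with a wild-type MOF peak within 5 kb of either gene end, the 39 members without one and all protein-coding genes in the RefSeq promoter table. The E2F letters searched, TTTGGCG or TTTCGCG, stand in 14 of the 39 and in 0 of the 9, and CCAAT in 66.7% of each.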

How the data were processed

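Bowtie2 2.3.0.1, deepTools and MACS2 with build mm10 are named per the submitters' processing notes; their settings, any blacklist, the input behind each list and the read numbers are not stated there, so depth is unknown. The deposited files have no header. The wild-type MOF lists that the authors deposited give 1 bp summits with a −log10 value per peak, read from its minimum just above 1.3 as −log10 q at a threshold of 0.05. The deposited heterozygous lists give intervals with a score, fold enrichment (ratio), −log10 p and −log10 q. In them the authors' score equals 10 times the −log10 q without decimals. The deposited GATA1 list holds other values only as positions (start and end).

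Peaks were placed by summit or interval midpoint, 1-based, and counted for every protein-coding gene (chromosomes 1 to 19, X and Y) with an end within 5 kb (Python 3.11.15, pandas 2.3.3). Distances were tested on simulated peaks. Shares have 95% Wilson intervals (scipy 1.17.1); nothing else was tested, since each group is 1 library. Motifs were searched as exact letters in RefSeq promoter windows. Members and lists were chosen with earlier results of these data known. All members with a peak are named. Of the 155 other genes, 3 matched by an older symbol, and the 5 highest per wild-type list and all in a heterozygous list are named. The closing section gives 7 other settings and 1 more that was chosen after seeing the data.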

Additional observations from a re-analysis of the deposited data

How the results depend on the processing

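Counts of members with a peak within 5 kb (10 in wild-type HSC, 5 in wild-type MEP, 3 in both) were recomputed under other choices. Counting a peak only for its nearest gene gave 4 in HSC, 5 in MEP and 1 in both. Peaks above the median of their list gave 5, 1 and 0, where the HSC share was 8.77% against 4.35% of all genes and the MEP share 1.75% against 1.54%. A −log10 value of at least 5 gave 6, 1 and 0 (HSC 10.5% against 4.70%, MEP 1.75% against 1.95%), so under either setting the MEP share was near that of all genes. A 1 kb window gave 7, 3 and 1 (HSC 12.3% against 6.15%, MEP 5.26% against 2.35%). A 20 kb window gave 10, 7 and 4 (HSC 17.5% against 14.1%, MEP 12.3% against 6.09%), which brought the HSC share closer to that of all genes; with 20 kb the GATA1 count rose from 0 to 1 (Mdc1; 1.73% of all genes). Shortening the HSC list to its 898 highest peaks, an alternative chosen after seeing the data, gave 5 in HSC (8.77%, against 4.19% of all genes) and 0 in both. Leaving out regions found in 4 or 5 lists, or using every base of an interval, left the counts at 10, 5 and 3. The heterozygous counts were 0 under all 7 alternatives run. The share of member peaks within 1 kb of any gene end was 90.9% in HSC and 60% in MEP, or 83.3% and 50% with a 20 kb window. No paired analysis was possible because each compared group has 1 library. Leaving out a replicate was not possible for the same reason.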

Other observations

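A MEP summit lay 16.3 kb from Pole, 162 bp from the end of Pgam5 (−log10 value 3.62, rank 733 of 898).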
